A study of Mus musculus with 10 samples.

Results

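The polypyrimidine tract binding (PTB) family comprises Ptbp1, Ptbp2 and Ptbp3, and its 3 genes were taken by name from the 26857 entries of the expression table, where Ptbp3 is listed under its older name Rod1. The RNA-binding clusters assigned to these genes numbered 15 of 35639. Every library came from V6.5 cells, a line of mouse embryonic stem (ES) cells. Those sequenced for mRNA carried lentiviral hairpins against Rbfox2 (shFox2-1 and shFox2-2) or control hairpins against luciferase (shLuc) and GFP (shGFP), with 2 poly(A)-selected libraries for each of the 4 hairpins. All 8 libraries came from cells kept for 3 days in puromycin at 1 µg/ml and for 24 h without it. For iCLIP, which records the RNA crosslinked to a protein, FLAG-HA-tagged human RBFOX2 (FHFOX2) and untagged human RBFOX2 (UntagFOX2) were each expressed for 24 h from a lentiviral transgene under doxycycline at 1 µg/ml. The clusters therefore describe an added human protein in mouse cells that also have their own Rbfox2. Both lines were selected in hygromycin at 150 µg/ml for 6 days and crosslinked at 150 mJ/cm2. There was 1 tagged library, amplified for 16 cycles, and 1 untagged library, which had 7 cycles more.

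PTB proteins bind pyrimidine-rich RNA through their RNA recognition motifs and most often repress the exons beside which they bind. PTBP1 is the form of most cell types outside the nervous system, PTBP2 (nPTB, brPTB) is the form of developing neurons and testis, and PTBP3 is best known from blood cells. The genes control one another through splicing. PTBP1 causes skipping of an exon of Ptbp2 pre-mRNA and of an exon of its own, and each skipped form carries a frameshift and is removed by nonsense-mediated decay (NMD). Rbfox2, the targeted gene, encodes a splicing regulator that binds GCAUG elements in introns and exons. The values here are totals per gene, so the spliced forms were not measured.

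Expression was given as FPKM, a count of fragments corrected for transcript length and library size, with a confidence interval. Each value pools the 2 libraries of a hairpin. Depth was unknown. Rbfox2 stood at 8.56 and 7.21 FPKM in shFox2-1 and shFox2-2, against 24.7 and 23.3 FPKM in shLuc and shGFP, so the hairpins matched their labels. On average, knockdown cells thus kept 32.9% of the control level of Rbfox2. Of 7 ES cell markers measured (Nanog was not analysed here), the lowest value in any hairpin was 13.3 FPKM, and their summed FPKM was 1044 in shFox2-1, 866 in shFox2-2, 867 in shLuc and 967 in shGFP. The 6 fibroblast markers measured summed to 3.28 FPKM or less in every hairpin, and Lum was listed at 0 throughout.

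Ptbp2 was the family gene that differed most between knockdown and control cells, and it was lower in the knockdown cells. Ptbp2 (chromosome 3 of mm9, 119421912 to 119486176, minus strand) stood at 15.0 FPKM in shFox2-1 (interval 12.6 to 17.4) and 12.0 FPKM in shFox2-2 (9.71 to 14.4), against 22.9 FPKM in shLuc (20.1 to 25.6) and 19.5 FPKM in shGFP (16.8 to 22.1). Each knockdown value lay under each control value, as in 17.8% of the 12632 expressed genes (those tested with a mean of at least 1 FPKM), but the intervals of shFox2-1 and shGFP overlapped. The means were 13.5 ± 2.12 FPKM in knockdown and 21.2 ± 2.41 FPKM in control cells (SD, n = 2 hairpins each), which put knockdown cells at 64.0% of the control level. Relative to the control mean, Ptbp2 stood at 71.1% in shFox2-1 and 56.9% in shFox2-2. Its order over the hairpins was the same as that of Rbfox2, with the highest value in shLuc and the lowest in shFox2-2. How many expressed genes shared this order was not analysed. Within the knockdown pair and within the control pair, the intervals of Rbfox2 overlapped, as did those of Ptbp2. The shFox2-2 value carried the status LOWDATA in place of OK, which the table does not explain. A bulk value cannot tell less RNA per cell from fewer cells with the transcript.

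The log2 fold change of Ptbp2 was -0.61 (standard error 0.16) on the log2(FPKM + 1) scale. The unadjusted p of limma over hairpins was 0.0109 and the adjusted p over 20281 genes was 0.978, so Ptbp2 did not pass the test. No gene passed it (0% of 20281), not even the targeted Rbfox2 (limma adjusted p = 0.913). An unadjusted p of at most 0.05 was found for 908 genes (4.48%). Among 7994 tested genes with a mean of at least 5 FPKM, Ptbp2 ranked 23 from the most negative log2 fold change. The intervals of Ptbp2 were apart in 3 of the 4 pairs of a knockdown and a control hairpin, and they overlapped by 0.659 FPKM between shFox2-1 and shGFP. Over the 12632 expressed genes, 43 (0.340%) were lower in at least 3 of the 4 pairs. That count of pairs was chosen after the values were seen. Intervals apart in all 4 pairs were found in 37 expressed genes (0.293%), and no PTB gene was among them.

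Markers of neurons, in which Ptbp2 is best known, were compared beside it. The 8 neuron markers measured summed to 113 FPKM in shFox2-1 and 83.7 FPKM in shFox2-2, against 91.3 FPKM in shLuc and 102 FPKM in shGFP. Most of that sum was Stmn2, a stathmin, and Tubb3, a tubulin, while Dcx was listed at 0 in every hairpin. Of the 5 markers expressed and tested, 3 were higher and 2 lower with knockdown, with a median log2 fold change of 0.01, and none passed the adjusted limma test. Among these 5, the marker whose knockdown and control values did not overlap was Elavl3, a neuronal RNA-binding protein, which stood at 1.36 and 1.34 FPKM in the knockdown hairpins, against 2.40 and 2.07 FPKM in the controls (limma unadjusted p = 0.0259). Its intervals overlapped in all 4 pairs. Over expressed genes, 17.8% had both knockdown values below both controls. Snap25, tested but under 1 FPKM, stood at 0.151 and 0.164 FPKM with knockdown, against 0.386 and 0.516 FPKM in the controls. Its limma unadjusted p was 0.0119, and its intervals also overlapped in all 4 pairs. Elavl4, likewise under 1 FPKM, had a log2 fold change of -0.06, with overlap between the groups. The part of such cells in the lower Ptbp2 value was not tested.

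Ptbp1 was the most abundant of the family genes in every hairpin. Ptbp1 (chromosome 10, 79317350 to 79327178, plus strand) stood at 156 FPKM in shFox2-1 (interval 145 to 166) and 175 FPKM in shFox2-2 (159 to 192), against 143 FPKM in shLuc (132 to 154) and 154 FPKM in shGFP (144 to 164). The knockdown values lay above both controls, as in 14.3% of expressed genes, shFox2-1 by less than the width of its interval. Its shFox2-2 value carried a failed status, which took the gene out of the planned test. With the failed value kept, the log2 fold change was 0.15 (standard error 0.11, limma adjusted p = 0.977). With it treated as missing, so that shFox2-1 alone stood for the knockdown, it was 0.07 (standard error 0.13, limma adjusted p = 0.994). That fit assumes that the single knockdown hairpin varies as the 2 controls do. Of the 4 interval pairs, 1 was apart, that of shFox2-2 and shLuc.

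Ptbp3 differed more between the hairpins against Rbfox2 than between knockdown and control. Ptbp3 (chromosome 4, 59487938 to 59562158, minus strand) stood at 22.9 FPKM in shFox2-1 (interval 20.0 to 25.8) and 15.3 FPKM in shFox2-2 (12.8 to 17.8), against 18.5 FPKM in shLuc (16.3 to 20.7) and 14.9 FPKM in shGFP (12.8 to 17.0). Only shFox2-1 lay above both controls, and shFox2-2 lay between them. The log2 fold change was 0.16 (standard error 0.22, limma unadjusted p = 0.491, adjusted p = 0.987), and without shFox2-1 it was -0.11. The shFox2-2 and shGFP values had the status LOWDATA. The interval of shFox2-1 lay above that of shFox2-2, as it did for 13.0% of expressed genes.

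**Figure D1:**
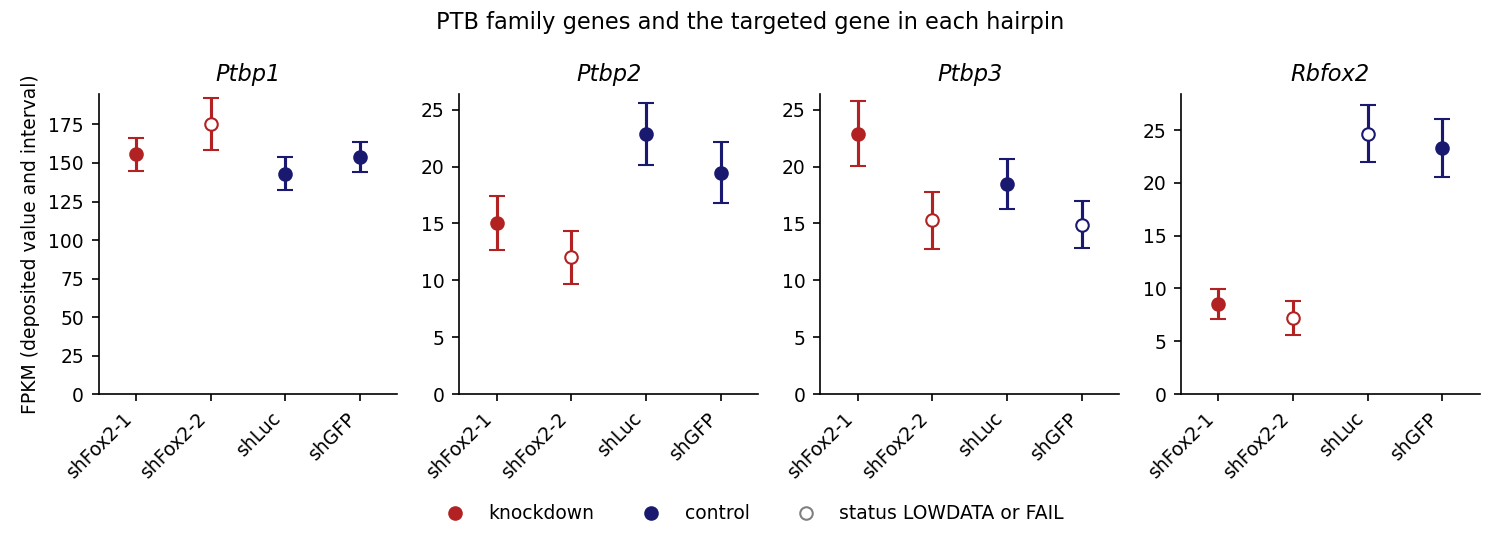
Deposited FPKM (vertical axis) and its interval (bars) for Ptbp1, Ptbp2, Ptbp3 and the targeted Rbfox2 in the 2 knockdown hairpins (red) and the 2 control hairpins (dark blue); open points carry the status LOWDATA or FAIL. For Ptbp2 both knockdown points, at 15.0 and 12.0 FPKM, lie under both control points, at 22.9 and 19.5 FPKM.

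The balance within the family followed from these levels. FPKM is per length, so the genes can be compared. The summed FPKM of the 3 genes was 194 in shFox2-1 and 203 in shFox2-2, against 184 in shLuc and 189 in shGFP. Ptbp1 made up 80.4% and 86.5% of that sum in the knockdown hairpins and 77.6% and 81.8% in the controls. The share of Ptbp2 was 7.77% and 5.94% in shFox2-1 and shFox2-2, against 12.4% and 10.3% in shLuc and shGFP. Between Ptbp2 and Ptbp3 the order changed, with Ptbp2 at 0.657 and 0.788 times the Ptbp3 level in the knockdown hairpins and at 1.24 and 1.30 times in the controls. The 2 genes' intervals overlapped in shFox2-2, shLuc and shGFP and were apart in shFox2-1.

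As a percentage of Ptbp1 FPKM, Ptbp2 stood at 9.67 in shFox2-1 and 6.86 in shFox2-2, against 16.0 in shLuc and 12.6 in shGFP. The ratio was lower in both knockdown hairpins than in either control, a log2 difference of -0.80. The two-sided exact permutation test over hairpins gave p = 0.333, the smallest p that 2 against 2 values allow, so the design could not pass a threshold of 0.05. The failed Ptbp1 value enters the shFox2-2 ratio, and without that hairpin the log2 difference was -0.55.

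**Figure D2:**
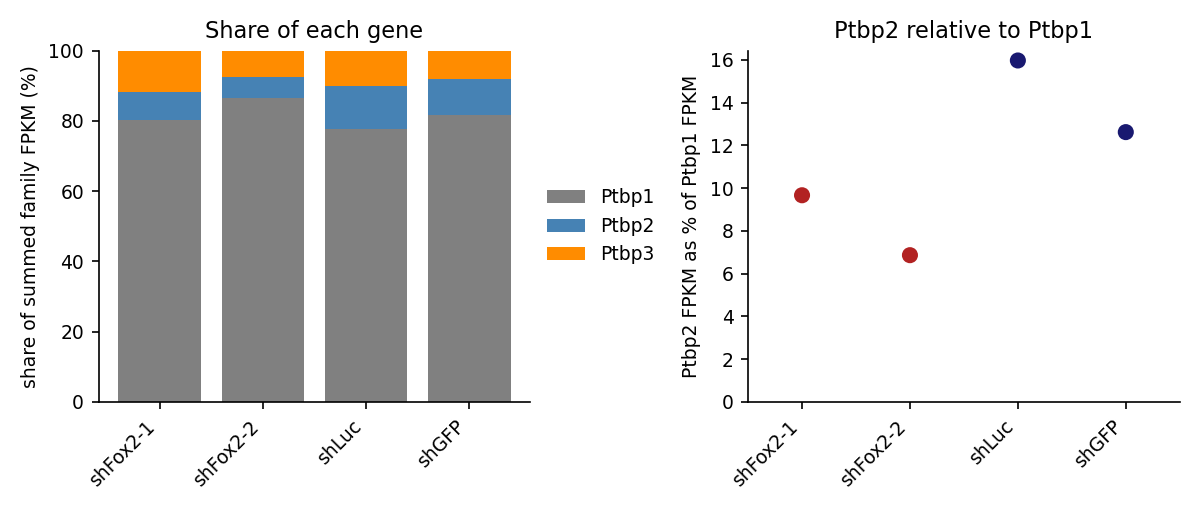
Left, the share of Ptbp1, Ptbp2 and Ptbp3 in the summed FPKM of the family (stacked bars, percent) in each hairpin; right, Ptbp2 FPKM as a percentage of Ptbp1 FPKM (points, knockdown red, control dark blue). The right panel shows 9.67 and 6.86 in the knockdown hairpins, under 16.0 and 12.6 in the controls.

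The genes whose pattern over the 4 hairpins was most like each member were found by the smallest distance between centred log2(FPKM + 1) values, among genes with a mean of at least 5 FPKM. All values come from the same pooled libraries, so the likeness is a description. Nearest to Ptbp2 were LOC100042995 (distance 0.16), Pls3, an actin-bundling gene (0.18), and an entry with no gene name on chromosome 11 (0.18). Pls3 stood at 10.4 and 9.17 FPKM in the knockdown hairpins, against 15.3 and 15.2 FPKM in the controls. No gene came within 0.1 of Ptbp2, whereas 204 did so for Ptbp1 and 8 for Ptbp3. Nearest to Ptbp1 were Sec11a, a subunit of the signal peptidase (0.01), LOC675985 (0.02) and LOC666033 (0.02). Nearest to Ptbp3 were Atp13a3, a P-type ATPase (0.04), 1110034B05Rik (0.07) and Ttc19, a factor of mitochondrial complex III (0.07).

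Clusters of tagged RBFOX2 were assigned by the authors to all 3 genes, 3 to Ptbp1, 8 to Ptbp2 and 4 to Ptbp3. By the same gene IDs, of the 10480 expressed genes with an Ensembl ID, 60.5% had at least 1 cluster, 33.1% had at least 3, 25.1% at least 4 and 10.7% at least 8. Each cluster carries a coverage in the tagged library, an enrichment over the untagged library, given as a fold, and a q-value. These are the authors' own values from 1 library without a replicate, and here they serve to describe and order the clusters of that list. The header does not define coverage further. Over all clusters the median coverage was 374, the highest was 202869, and 44.9% had no coverage in the untagged library.

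The strongest cluster of the family lay in Ptbp2, at 119427170 to 119428085 of chromosome 3. Its coverage was 16703, rank 426 of 35639, so that 1.20% of all clusters were at or above it. Its fold over the untagged library was 29.9, matched or passed by 1.85% of the clusters with a finite fold, and its q-value was listed as 0. It spanned 916 bases, against a median of 91 bases for all clusters, and was at rank 167 by width. The summit, the point of highest coverage, lay 95 bases from its downstream end and 5354 bases before the 3′ end of the locus. This cluster held 87.4% of the coverage assigned to Ptbp2.

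The other 7 Ptbp2 clusters had coverages of 150 to 625. A pair of them flanked the strong cluster. One lay 1310 bases upstream by summit (119428415 to 119428590), with a coverage of 569 and a fold of 2.54. The other lay 762 bases downstream (119426479 to 119426534), with a coverage of 217 and none in the untagged library. Farther upstream, the cluster at 119449481 to 119449581 had a coverage of 625 and a fold of 5.58, and that at 119438685 to 119438762 had 380 and 3.39. Clusters at 119433707 to 119433752 and 119433288 to 119433332 had coverages of 163 and 150, the first with none in the untagged library and the second with a fold of 1.34 (q-value 0.011). The last, at 119421753 to 119421820, had a coverage of 303 and a fold of 1.35, and its summit lay 127 bases beyond the end of the locus.

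The 3 clusters of Ptbp1 stood close together, with summits 204 and 392 bases apart. From 5′ to 3′ they lay at 79324315 to 79324371, 79324441 to 79324549 and 79324796 to 79325028 of chromosome 10. Their coverages were 269, 683 and 1192. The first had no coverage in the untagged library, and the folds of the others were 6.10 and 3.55. Their summits lay between 71.0% and 77.1% of the locus length from its 5′ end. The highest of the 3 ranked 6628 by coverage among all clusters.

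Of the 4 clusters of Ptbp3, 2 lay in the locus of the expression table and 2 beyond its 3′ end. The strongest, at 59487002 to 59487266 of chromosome 4, had a coverage of 2100 and a fold of 2.68, and its summit lay 814 bases beyond that end. The other outside cluster (59484820 to 59484929) lay 3065 bases beyond it, with a coverage of 403 and a fold of 14.9. Inside, the cluster at 59489094 to 59489212 had a coverage of 556 and a fold of 2.48, and that at 59504309 to 59504402 had a coverage of 343 with none in the untagged library. The authors assigned all 4 to Ptbp3.

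All 15 summits lay in the 3′ 50% of their locus or beyond it, the most upstream at 57.0% of the length of Ptbp2. Over 30469 clusters placed in the locus of an expressed gene in the same way, 49.9% did so. The family's clusters come from 3 genes and are not independent of one another. Beyond the 3′ end lay 3 of the 15, against 3.54% of all clusters placed. Whether a cluster lay in an exon or an intron was not analysed here, and the bases under it were not read, since no genome of the build mm9 was used.

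**Figure D3:**
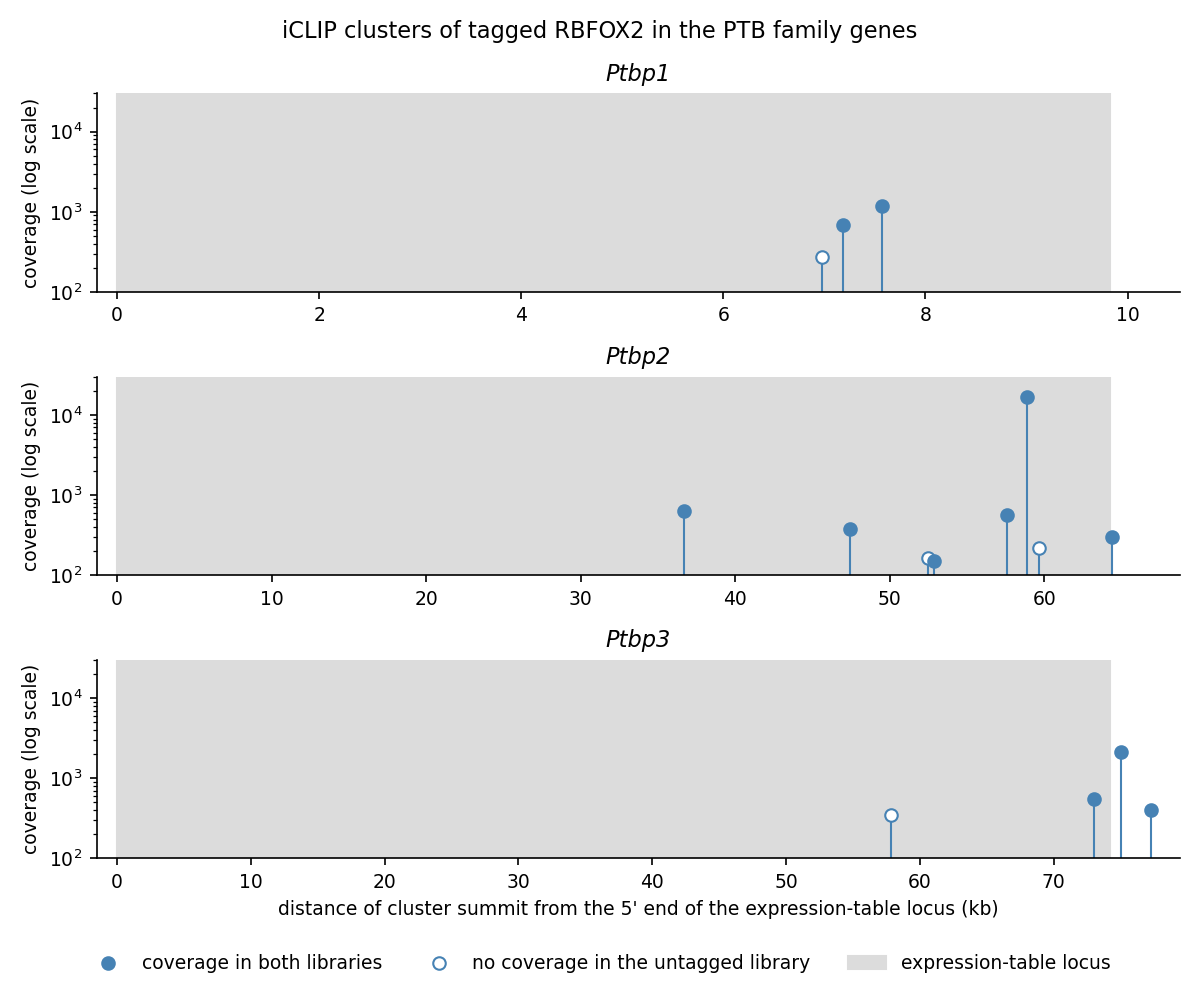
Clusters of tagged RBFOX2 in Ptbp1, Ptbp2 and Ptbp3, drawn by the distance of the summit from the 5′ end of the locus (horizontal axis, kb) and by coverage (vertical axis, log scale); grey marks the locus of the expression table and open points have no coverage in the untagged library. The Ptbp2 cluster with a coverage of 16703 stands far above the others, which reach 2100 at most. All 15 summits lie in the 3′ 50% of their locus or beyond it.

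Summed over a gene, coverage was 2144 for Ptbp1, 19110 for Ptbp2 and 3402 for Ptbp3, and among 7740 genes with clusters the median was 1437. Ptbp2 ranked 522 of those genes, with 6.74% at or above it. Divided by the control FPKM of the gene, coverage was 903 per FPKM for Ptbp2, 204 for Ptbp3 and 14.4 for Ptbp1, against a median of 155 over 6326 expressed genes with clusters. By this measure Ptbp2 ranked 1067 of the 6326 genes, with 16.9% at or above it. The divisor comes from poly(A)-selected libraries of control hairpin cells and not from the iCLIP cells. Coverage per FPKM was thus highest for Ptbp2 and lowest for Ptbp1. The order by number of clusters depended on how they were counted. Within the loci there were 3 clusters in Ptbp1, 7 in Ptbp2 and 2 in Ptbp3. The loci span 9.83 kb for Ptbp1, 64.3 kb for Ptbp2 and 74.2 kb for Ptbp3, and per 10 kb of locus Ptbp1 had the most clusters, at 3.05, against 1.09 in Ptbp2 and 0.269 in Ptbp3.

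**Figure D4:**
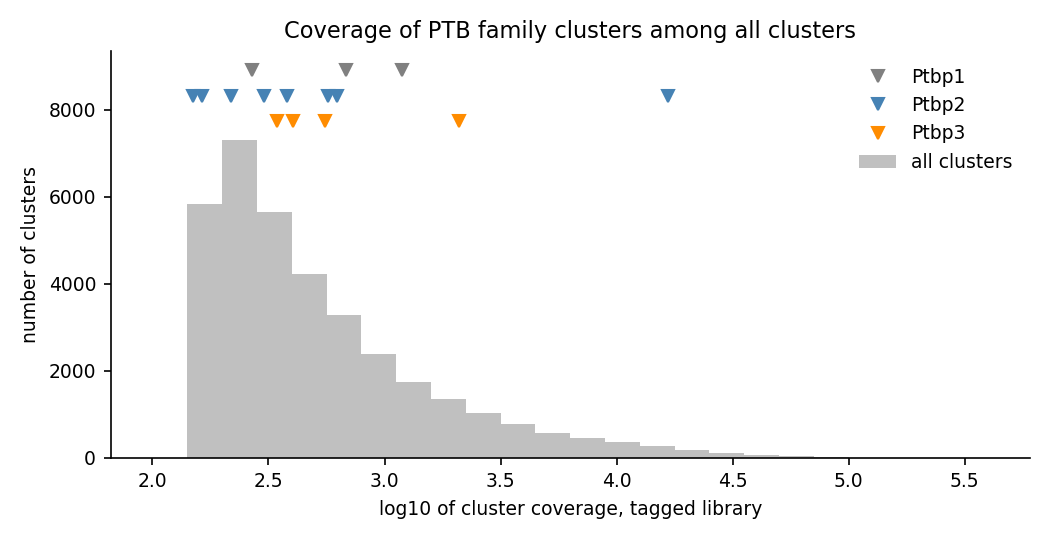
Number of clusters (vertical axis) by log10 of coverage in the tagged library (horizontal axis) for all 35639 clusters (grey bars), with the clusters of Ptbp1, Ptbp2 and Ptbp3 as triangles above. The Ptbp2 cluster of 16703 lies in the sparse upper tail, and the other 14 fall within the body of the distribution.

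The closest relatives of the family outside it, Hnrnpl and Hnrnpll, encode proteins of similar architecture that bind CA-rich RNA. Hnrnpl (listed as Hnrpl) stood at 132 and 112 FPKM in shFox2-1 and shFox2-2, against 125 and 140 FPKM in shLuc and shGFP. It had 2 clusters, 1 of them with a coverage of 13309. Hnrnpll stood at 18.5 and 15.3 FPKM in the knockdown hairpins, against 20.3 and 20.1 FPKM in the controls (log2 fold change -0.25, limma unadjusted p = 0.130), and it had no cluster. Hnrnpll and Ptbp2 were the 2 of the 4 genes of this group in the test whose knockdown values lay below both controls, as those of 17.8% of expressed genes did.

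A list of RNA-binding proteins set beside PTB, some of which bind it directly, was considered next. Of 13 genes on this list, 12 were measured and expressed, and Mbnl1 was not analysed here. No member passed the limma test, adjusted or unadjusted, and the median log2 fold change was 0.01, against -0.01 over all expressed genes. Raver1 and Raver2 encode co-repressors that bind PTB directly. Raver1 stood at 31.0 and 23.2 FPKM in the knockdown hairpins against 26.0 and 30.8 FPKM in the controls. Raver2 stood at 1.65 FPKM in shFox2-1 and 3.76 FPKM in shFox2-2, against 4.06 FPKM in shLuc and 3.84 FPKM in shGFP. The low value was that of shFox2-1, while shFox2-2 lay near the controls. The most abundant members were the G-tract binders Hnrnpf and Hnrnph1 and the PTB-binding nuclear matrix protein Matr3. Hnrnpf stood at 251 and 259 FPKM in the knockdown hairpins, against 230 and 236 FPKM in the controls. Hnrnph1 stood at 239 FPKM in shFox2-1 and 163 FPKM in shFox2-2, on either side of the 176 and 179 FPKM of the controls. Matr3 likewise stood at 108 and 84.0 FPKM in shFox2-1 and shFox2-2, on either side of 99.3 and 102 FPKM in the controls. The median gene was also high in shFox2-1 and low in shFox2-2, and these values are not corrected for that. All 12 had a cluster, and 7 had at least 4, against 60.5% and 25.1% of expressed genes with an Ensembl ID. Those genes were not matched to the list by FPKM or locus length. The most were 15 in the muscleblind gene Mbnl2, 13 in Celf1 and 11 in Raver2.

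Factors that read the polypyrimidine tract and branch point at 3′ splice sites, or bind similar RNA, formed the third list. Of 19 genes, 17 were measured and expressed (U2af1l4 and Zrsr1 were not analysed here). None had an adjusted limma p of 0.05 or less, and 2 had an unadjusted one, against 3.36% of expressed genes. Tia1, which binds U-rich tracts beside 5′ splice sites, stood at 13.2 and 13.8 FPKM in the knockdown hairpins, against 19.6 and 16.3 FPKM in the controls (limma unadjusted p = 0.0392). Pcbp2, a poly(C)-binding protein, stood at 361 and 368 FPKM in the knockdown hairpins, against 299 and 313 FPKM in the controls (limma unadjusted p = 0.0318), and was the member with all 4 interval pairs apart. U2af2, the large U2AF subunit, stood at 59.9 and 50.0 FPKM with knockdown, against 48.1 and 53.9 FPKM in the controls, so the groups overlapped. The branch point factor Sf1 stood at 126 and 130 FPKM with knockdown, against 116 and 119 FPKM in the controls. Pcbp1, a paralog of Pcbp2, lay lower at 127 and 114 FPKM with knockdown, against 130 and 154 FPKM in the controls. Over the list the median log2 fold change was 0.07, with 12 members higher and 5 lower, against 6016 higher and 6616 lower among all expressed genes. All 17 had a cluster, and 10 had at least 4, against 60.5% and 25.1% of expressed genes with an Ensembl ID, again not matched by FPKM or locus length. U2surp had the most, with 18.

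Transcripts known to be spliced or retained under PTB control formed the last list, which contains Ptbp2 and Ptbp3. All 24 were found and 19 were expressed and tested. None passed the adjusted limma test. Their median log2 fold change was -0.12, with 6 higher and 13 lower, against 6016 higher and 6616 lower among all expressed genes. In 10 of the 19, Ptbp2 included, both knockdown values lay below both controls, and in 2 they lay above both. Those shares over expressed genes were 17.8% below and 14.3% above. Among the other 9 lower ones were Pkm, Tpm1, Tpm2, Flna, Numb, Dlg4, Unc13b and Sv2a. Pkm, the pyruvate kinase gene whose exon choice PTB sets, stood at 312 and 331 FPKM in the knockdown hairpins, against 366 and 430 FPKM in the controls (log2 fold change -0.30, limma unadjusted p = 0.0396). Tpm1, a tropomyosin, stood at 49.4 and 44.0 FPKM in the knockdown hairpins, against 53.3 and 58.0 FPKM in the controls. Dlg4, which encodes the synaptic scaffold PSD-95, stood at 2.70 and 2.46 FPKM with knockdown, against 2.83 and 2.93 FPKM in the controls.

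Clusters were found in 16 of the 19 tested members of this last list, and 14 had at least 4. The shares were 60.5% and 25.1% over expressed genes with an Ensembl ID, not matched by FPKM or locus length. Fgfr2, a receptor with mutually exclusive exons, had 101 clusters and stood at 7.67 FPKM in shFox2-1 and 4.94 FPKM in shFox2-2, against 4.94 and 5.30 FPKM in the controls. It was shFox2-1 that stood apart. Actn1, which encodes an α-actinin, had 11, the strongest with a coverage of 45776, and stood at 38.8 and 34.5 FPKM with knockdown, against 36.2 and 40.2 FPKM in the controls, with overlap. Cltb, the clathrin light chain B gene, had none and stood at 24.8 and 19.0 FPKM with knockdown, against 17.1 and 17.7 FPKM in the controls.

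**Figure D5:**
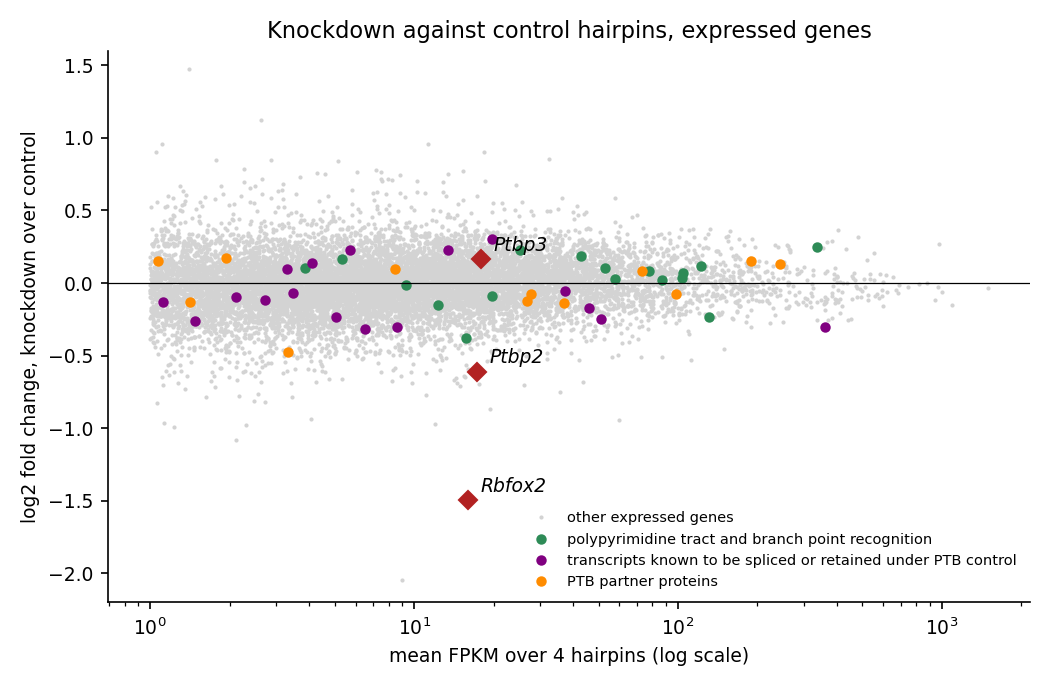
Log2 fold change of knockdown over control (vertical axis) against mean FPKM over the 4 hairpins (horizontal axis, log scale) for the 12632 expressed genes (grey), with 3 gene lists in colour and Ptbp2, Ptbp3 and Rbfox2 as red diamonds. Ptbp2 lies at -0.61, below the other members of the lists drawn, and Ptbp1 is not drawn because a failed status took it out of the test.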

How the data were processed

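Expression was deposited by the authors as FPKM in a gene table with a Cuffdiff layout that holds, per the file headers, a value, its confidence bounds and a status for every hairpin. TopHat2 2.0, Cufflinks 2.1.1 and the build mm9 are listed in the notes on processing by the submitters. Not given in the sources used here are the annotation, the scaling between hairpins, the iCLIP aligner and the cluster caller. The clusters were already filtered for enrichment over the untagged library, per the file headers. Positions are 1-based.

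Entries with a failed status (105) or at 0 FPKM throughout (6477) were left out, which left 20281 genes. The test was limma 3.58.1 under R 4.3.3, with its trend option, on log2(FPKM + 1) of those genes, 2 knockdown against 2 control hairpins, two-sided, with Benjamini-Hochberg adjustment. Such fold changes are smaller than the true ones for genes of low FPKM. Because duplicates were pooled, the p-values measure the spread between hairpins, not cultures. The exact permutation test used scipy 1.17.1. Symbols and older names were matched through the reference gene tables, and 83.0% of expressed entries had an Ensembl ID.

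The family, the 7 gene lists and the tests were chosen with earlier results of these data known. The text names the family genes, Rbfox2, the most abundant, most clustered or separated members of each list, and the 3 genes most like each family gene. Raver1, U2af2, Tia1, Dlg4, Cltb, the single markers and the genes listed as lower in the last list were named after their values were seen. The alternatives tried were another pseudocount, a filter on low FPKM, median centring, status, each hairpin left out, and other rules for assigning clusters. Some members of the last list are not reported here.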

Additional observations from a re-analysis of the deposited data

How the results depend on the processing

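The log2 fold change of Ptbp2 kept its sign in every fit run, between -0.76 and -0.46 with a hairpin left out, -0.64 with a pseudocount of 0.1 and -0.60 after median centring. Its unadjusted limma p was 0.0813 without shFox2-2, 0.0617 without shGFP and 0.128 without shLuc, and its adjusted p was never 0.05 or less (0.369 to 1). Ptbp1 lay between 0.07 and 0.24 with a hairpin left out. Ptbp3 lay between -0.11 and 0.44 and reversed without shFox2-1, where the cause was not tested. The ratio of Ptbp2 to Ptbp1 differed by -1.05 to -0.55 (log2). With only genes of at least 1 FPKM fitted, limma called 1 gene, Rbfox2, and no PTB gene. With a hairpin left out, 106 to 954 genes were separated, and 92 were with 3 of the 4 pairs required; fewer pairs were then needed. After median scaling, Ptbp1 had 2 interval pairs apart, both with its failed shFox2-2 value, and Ptbp2 still 3. With a fold of at least 4, Ptbp2 kept 4 of its 7 clusters in the locus and Ptbp3 1 of 2. By gene ID, or with 5 kb downstream added after seeing the data, Ptbp3 had 4. Requiring the status OK in every hairpin left no family gene to test. No paired analysis was possible because the deposited values pool the duplicates of each hairpin. Unknown depth limits the FPKM, and 1 library each limits the iCLIP data.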
